A study of Culex quinquefasciatus with 12 samples.

Results

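Of the 19751 *Culex quinquefasciatus* genes on a custom Agilent array, 53 were lower in the midgut of Bin toxin-treated larvae than in the midgut of untreated larvae at 12 h of exposure and lay near the untreated signal at 6 and 18 h. Bin toxin is the binary toxin (BinA and BinB) of the bacterium *Lysinibacillus sphaericus*. The 53 genes were chosen by the measured log2 ratio of the toxin signal over the untreated signal, as the scanner software gives both signals, averaged over the spots of a gene and over the 4 arrays of a time. The mean ratio had to be -1 or less at 12 h, within 0.5 of 0 at 6 and at 18 h, and below -0.5 on every one of the 4 arrays of 12 h, and a spot had to be well above background in the untreated channel on all 12 arrays. These ratios therefore describe the genes and carry no test. The study fed larvae of the third instar (JHB strain), starved for 3 h, with BinA and BinB in equal molar amounts at 80 ng/ml for 6, 12 or 18 h, and took larvae without toxin as controls at each time. Each time had 4 biological replicates of 20 larvae, and RNA came from pooled midguts of larvae that were still alive. Toxin-treated RNA carried Cy5 and untreated RNA Cy3 on all 12 arrays, with 1 replicate per array, so that a dye effect particular to a gene cannot be told apart from the toxin at a given time. The 4 arrays of a time shared 1 slide and 1 scan, and slide and time cannot be told apart either.

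The spread of the channels differed. It was measured on 1058 spots of probes that the array carries more than once, as the median difference of a spot between 2 arrays of a time and of 2 spots of 1 probe on 1 array (log2). In the toxin channel a spot differed between arrays by 0.219, 0.183 and 0.164 at the 3 times, which was more than the 0.17, 0.147 and 0.125 within an array. In the untreated channel it differed by 0.0959, 0.0789 and 0.0651 between arrays, which was less than the 0.101, 0.138 and 0.116 within an array. By the median, the 4 untreated signals of a time thus differed by less than repeated spots. At 6 h the ranges overlapped, with 0.0651 to 0.113 between arrays and 0.0781 to 0.127 within an array. The study describes 4 biological replicates, but the 4 untreated signals are counted here as 1 untreated sample per time. Counted so, the 4 ratios of a time share that sample, and the SD given with a mean ratio (n = 4 arrays) leaves out the spread among untreated larvae. Between 75.4% and 85.1% of spots stood well above background in the toxin channel, and between 72.8% and 88.5% in the untreated channel.

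The larval midgut digests and absorbs food, and it is the tissue that Bin toxin attacks: in *Culex* the toxin binds an alpha-glucosidase that a glycolipid (GPI) anchor holds on the apical membrane of midgut cells. The cells depend on oxidation and conjugation enzymes that act on foreign compounds, on glycosylation of membrane and mucus proteins, and on mitochondria that import their proteins and exchange metabolites through carriers. Some of the named genes have such roles, others do not. The study's list of genes names 32 of them, 9 of these only as conserved hypothetical proteins, and 21 are known here by their VectorBase identifier alone. That list holds the transcripts that the study reports as regulated at any of its times. The 21 genes are absent from it, so they were not reported as regulated, and do not only lack a name. Of these 21 genes, 10 were called lower at 12 h here by the limma test described below. In the study's own classes, 7 of the 32 fall under redox, stress and mitochondrion (329 of the 3780 listed genes), 3 under immunity (217), 3 under metabolism (427), 2 under transport (288) and 1 under proteolysis (138), and 11 are diverse (1259) and 6 unknown (950), with 1 gene in 2 classes.

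As a set, the 53 genes had median log2 ratios of -0.32, -1.12 and -0.31 at 6, 12 and 18 h, against 0.02, 0.03 and 0.00 over all genes. The toxin signal at 12 h was between 15.7% and 49.9% of the untreated signal, with a median of 46.1%. Mean ratios at 12 h reached -2.67, but most genes lay close to the limit: 9 were at -1.5 or below, 9 between -1.5 and -1.2, and 35 above -1.2. The median SD over the 4 arrays was 0.34, 0.27 and 0.31 at 6, 12 and 18 h. Away from 12 h the ratios leaned to the low side, since 42 of the 53 genes averaged below 0 at both 6 and 18 h and only CPIJ014196 and CPIJ009348 averaged above 0 at both. In 33 of the 53 genes every ratio of 12 h lay below every ratio of 6 and 18 h, a property that 2.53% of all genes had and that the choice of the genes favors. The other 20 genes overlapped between times.

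**Figure D1:**
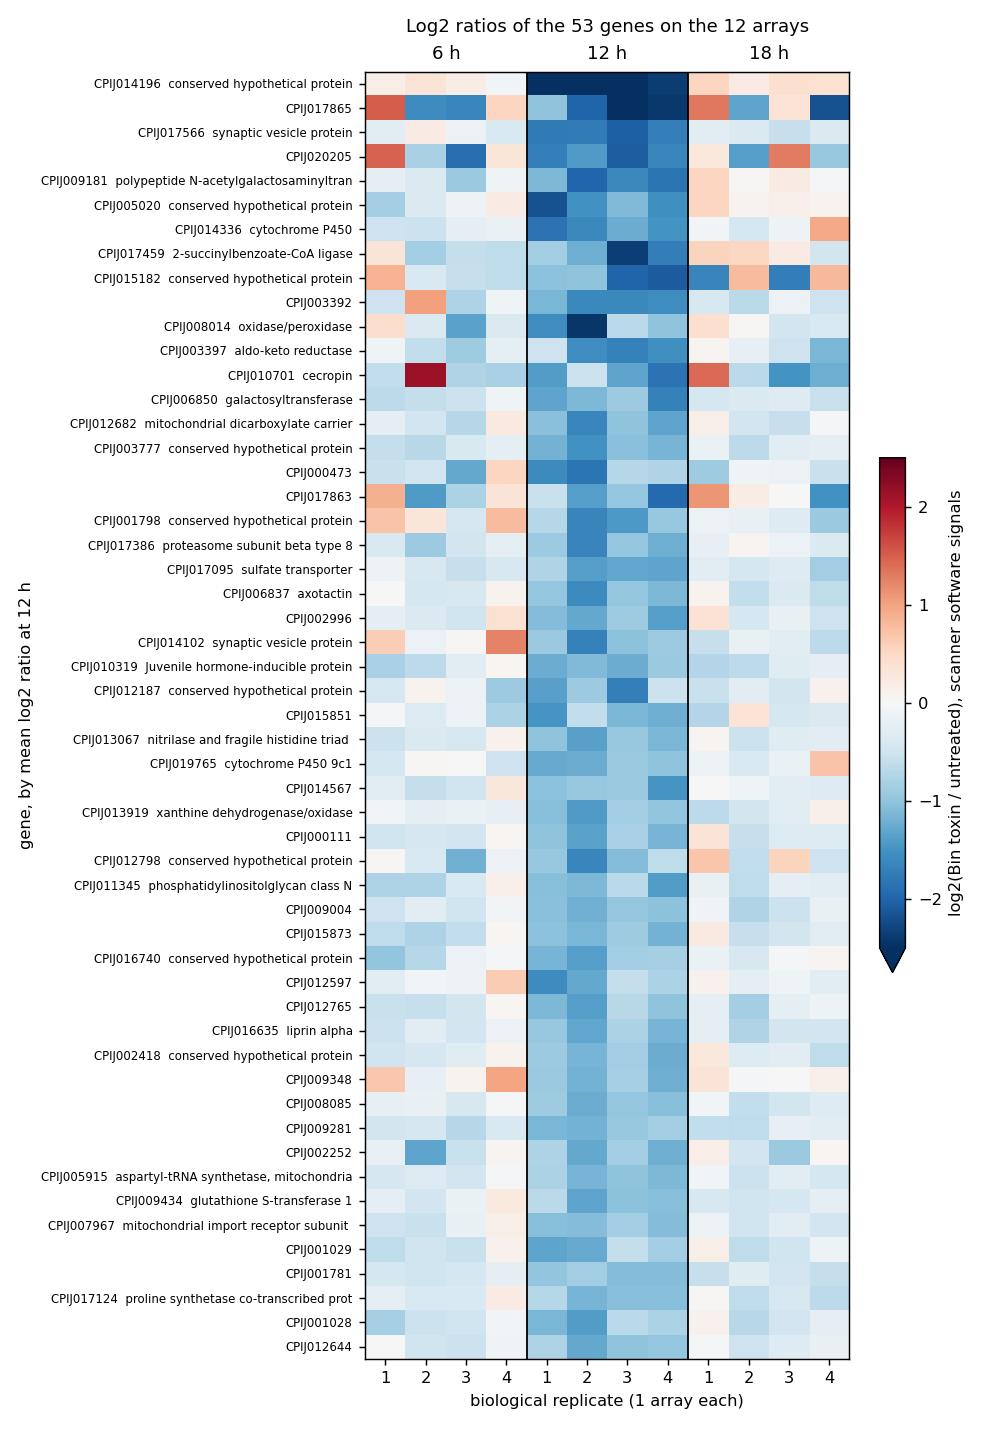
Each row is 1 of the 53 genes, ordered by its mean ratio at 12 h, and each column 1 array; color gives log2(Bin toxin / untreated) from the scanner software's signals. The 4 columns of 12 h are blue throughout, from -0.51 to -3.01, while 6 and 18 h are pale for most genes and hold both colors for a few, such as CPIJ017865, CPIJ020205 and cecropin.

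The dip at 12 h was one among several patterns of genes low at that time. A mean ratio of -1 or less at 12 h was measured for 1020 genes. Of these, 478 were also below -0.5 at both 6 and 18 h, 290 were below -0.5 at 6 h and within 0.5 of 0 at 18 h, and 137 were within 0.5 of 0 at 6 h and below -0.5 at 18 h. Only 78 were within 0.5 of 0 at both, and 9 of them had an array of 12 h at -0.5 or above. Among the remaining 69, 16 were not well above background on all 12 arrays, which left 53. With the signs turned, the same rule found 80 genes higher only at 12 h.

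Both edges of the rule ran through a dense part of the data. CPIJ012644 (-1.004 ± 0.21), CPIJ001028 (-1.006 ± 0.33) and the proline synthetase co-transcribed protein-like CPIJ017124 (-1.007 ± 0.20) were just inside the limit at 12 h. Just outside were the conserved hypothetical protein CPIJ013739 (-0.998 ± 0.15), the taz protein CPIJ000239 (-0.998 ± 0.33) and the conserved hypothetical protein CPIJ019170 (-0.987 ± 0.16, SD and n = 4 arrays for each). Within 0.1 of the limit there were 24 genes inside and 37 outside that met the other conditions, and 25 of the 53 genes lay within 0.1 of the edge of the window at 6 or 18 h. Membership depended on how the ratios were made. With ratios corrected for local background by normexp and normalized by loess, the same limits found 35 genes, of which 15 were among the 53, and for 32 of the others the mean ratio at 12 h was above -1. In all 7 other ways of making the ratio that were tried, 5 genes met the rule: CPIJ014196, CPIJ017865, the synaptic vesicle proteins CPIJ017566 and CPIJ014102, and the mitochondrial dicarboxylate carrier CPIJ012682. With any 1 of the 12 arrays left out, 10 genes met the rule, among them CPIJ014196, CPIJ017566, CPIJ012682, the cytochromes P450 CPIJ014336 and CPIJ019765, and tom20 (CPIJ007967). Of these, CPIJ019765 and tom20 did not meet it with the normexp and loess ratios or with the deposited ratios. CPIJ014336 met it with the normexp and loess ratios but not with the deposited ratios.

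The lowest ratio at 12 h belonged to CPIJ014196, a conserved hypothetical protein. Its log2 ratios were 0.16, 0.32, 0.19 and -0.07 on the arrays of 6 h, -3.01, -2.55, -2.75 and -2.37 on those of 12 h, and 0.53, 0.21, 0.41 and 0.39 on those of 18 h. All 4 arrays of 12 h were low by more than 2 log2 units and all 4 of 18 h were above 0. The mean at 12 h was -2.67 ± 0.27, a toxin signal of 15.7% of the untreated one, and its 2 spots gave -2.72 and -2.62.

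A pair of the genes are named synaptic vesicle protein, after a family of transporter-like membrane proteins of secretory vesicles. CPIJ017566 had log2 ratios of -0.29, 0.20, -0.15 and -0.39 on the arrays of 6 h, -1.77, -1.74, -2.05 and -1.71 on those of 12 h, and -0.27, -0.37, -0.57 and -0.37 on those of 18 h. The 4 values of 12 h lay within 0.15 (SD) of their mean of -1.82 and far from the other 8. CPIJ014102 had 0.61, -0.15, 0.03 and 1.24 on the arrays of 6 h, -0.92, -1.69, -1.03 and -0.91 on those of 12 h, and -0.58, -0.18, -0.28 and -0.66 on those of 18 h, so that it was on both sides of 0 at 6 h and low at 12 h (-1.14 ± 0.37). The study's list, which was drawn up from these same samples, holds 10 genes of this name, picked out here after their values were seen. Their means at 12 h ran between -3.09 and -0.40 with a median of -1.34, and 8 of the 10 were called lower at 12 h by the limma test described below, against 5.51% of all genes. Some other families of the list with a gene among the 53 also had lower calls only. These were 10 juvenile hormone-inducible proteins with 5 called lower and 3 xanthine dehydrogenases with 3 called lower, with 0 called higher in both. Others went both ways, such as 6 sulfate transporters with 1 called lower and 1 higher and 17 CoA ligases with 5 lower and 4 higher. Over all genes, 3.88% were called higher. Another name from the nervous system was liprin alpha (CPIJ016635), a scaffold protein of synapses, with mean ratios of -0.36 ± 0.18, -1.05 ± 0.22 and -0.48 ± 0.22. Axotactin (CPIJ006837), in *Drosophila* a secreted protein of glia, had -0.19 ± 0.27, -1.16 ± 0.30 and -0.38 ± 0.33 at the 3 times. In both genes every array of 12 h was below every array of 6 and 18 h.

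Enzymes that oxidize, reduce or conjugate small molecules gave 6 of the named genes. Cytochromes P450 are heme monooxygenases that act on hormones and foreign compounds. The cytochrome P450 CPIJ014336 had log2 ratios of -0.51, -0.54, -0.24 and -0.16 on the arrays of 6 h, -1.84, -1.61, -1.25 and -1.5 on those of 12 h, and -0.06, -0.43, -0.13 and 0.94 on those of 18 h. It was low on each array of 12 h (-1.55 ± 0.24), and 1 array of 18 h stood above 0. Cytochrome P450 9c1 (CPIJ019765) had -0.44, 0.02, 0.00 and -0.52 on the arrays of 6 h, -1.26, -1.25, -0.92 and -1.01 on those of 12 h, and -0.13, -0.39, -0.16 and 0.71 on those of 18 h. Replicate 4 of 18 h was the highest in both of these genes. The list of the study holds 90 cytochromes P450, whose means at 12 h ran between -3.06 and 3.00, and 34 were called lower and 11 higher.

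The aldo-keto reductase CPIJ003397, of a family that reduces aldehydes and sugars with NADPH, had -0.11, -0.62, -0.88 and -0.22 on the arrays of 6 h, -0.51, -1.56, -1.68 and -1.53 on those of 12 h, and 0.06, -0.21, -0.51 and -1.15 on those of 18 h. Replicate 1 of 12 h stood apart from the other 3, and the times overlapped. The oxidase/peroxidase CPIJ008014, which the study places under immunity, had 0.43, -0.37, -1.34 and -0.36 on the arrays of 6 h, -1.56, -2.43, -0.68 and -1.0 on those of 12 h, and 0.42, 0.03, -0.46 and -0.38 on those of 18 h. Its low ratios at 12 h spread widely (SD 0.77), and replicate 3 of 6 h lay below replicates 3 and 4 of 12 h. Xanthine dehydrogenase/oxidase (CPIJ013919), which makes uric acid from purines, had -0.06, -0.22, -0.16 and -0.21 on the arrays of 6 h, -1.07, -1.41, -0.85 and -0.99 on those of 12 h, and -0.66, -0.45, -0.26 and 0.12 on those of 18 h. This gene was even at 6 h (SD 0.07) and separate at 12 h. Glutathione S-transferase 1 (CPIJ009434), which joins glutathione to reactive compounds, had -0.24, -0.48, -0.17 and 0.24 on the arrays of 6 h, -0.68, -1.32, -1.02 and -1.07 on those of 12 h, and -0.40, -0.49, -0.44 and -0.25 on those of 18 h. It was the one gene of the 53 with all 8 arrays of 6 and 18 h within 0.5 of 0.

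Among the named genes are 3 enzymes that build glycans or lipid anchors. Polypeptide N-acetylgalactosaminyltransferase 2 (CPIJ009181), which adds the first sugar of mucin-type O-glycans, had -0.24, -0.36, -0.92 and -0.10 on the arrays of 6 h, -1.13, -1.98, -1.61 and -1.83 on those of 12 h, and 0.53, 0.02, 0.20 and -0.02 on those of 18 h. It was close to 0 at 18 h after a mean of -1.64 ± 0.37 at 12 h. The galactosyltransferase CPIJ006850 had -0.65, -0.60, -0.53 and -0.11 on the arrays of 6 h, -1.31, -1.13, -0.91 and -1.68 on those of 12 h, and -0.43, -0.37, -0.33 and -0.55 on those of 18 h, and every ratio of 12 h lay below those of 6 and 18 h, which overlapped. Phosphatidylinositolglycan class N (CPIJ011345), an enzyme of GPI anchor synthesis, averaged -0.45 ± 0.42, -1.07 ± 0.29 and -0.33 ± 0.21 at the 3 times, and its arrays of 6 and 12 h overlapped. The study's list holds 11 genes named as galactosyltransferases or N-acetylgalactosaminyltransferases, with means at 12 h between -1.69 and 2.67, and 5 were called lower and 2 higher.

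Mitochondrial genes and carriers followed. The mitochondrial dicarboxylate carrier CPIJ012682, which exchanges malate and succinate for phosphate across the inner membrane, had -0.22, -0.47, -0.71 and 0.24 on the arrays of 6 h, -1.04, -1.63, -1.01 and -1.32 on those of 12 h, and 0.14, -0.47, -0.58 and -0.04 on those of 18 h. Its 12 h ratios did not overlap with the other times. Mitochondrial import receptor subunit tom20 (CPIJ007967), which receives precursor proteins at the outer membrane, had -0.52, -0.55, -0.19 and 0.14 on the arrays of 6 h, -1.06, -1.08, -0.86 and -1.08 on those of 12 h, and -0.15, -0.50, -0.29 and -0.47 on those of 18 h. The mitochondrial aspartyl-tRNA synthetase CPIJ005915, which charges the tRNA for aspartate in the organelle, had -0.42, -0.34, -0.46 and -0.05 on the arrays of 6 h, -0.80, -1.17, -1.0 and -1.12 on those of 12 h, and -0.06, -0.54, -0.26 and -0.43 on those of 18 h. In both genes every ratio of 12 h lay below those of 6 and 18 h, and the spread at 12 h was narrow (SD 0.11 in tom20 and 0.16 in aspartyl-tRNA synthetase). The sulfate transporter CPIJ017095, an anion carrier, averaged -0.38 ± 0.19, -1.18 ± 0.29 and -0.48 ± 0.27, with replicate 4 of 18 h lower than replicate 1 of 12 h.

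Proteasome subunit beta type 8 (CPIJ017386) carries the name of a catalytic subunit that in mammals belongs to the immunoproteasome. It had -0.38, -0.91, -0.46 and -0.22 on the arrays of 6 h, -0.91, -1.66, -0.96 and -1.22 on those of 12 h, and -0.21, 0.06, -0.14 and -0.36 on those of 18 h. At 18 h it was near 0 on each array, while replicate 2 of 6 h equaled the highest array of 12 h. The antimicrobial peptide cecropin (CPIJ010701) was the least even named gene, with -0.62, 2.16, -0.75 and -0.81 on the arrays of 6 h, -1.40, -0.54, -1.31 and -1.84 on those of 12 h, and 1.41, -0.67, -1.49 and -1.23 on those of 18 h. Its mean of -0.01 at 6 h came from 1 array far above 0 and 3 below it. The juvenile hormone-inducible protein CPIJ010319 averaged -0.43 ± 0.39, -1.13 ± 0.15 and -0.49 ± 0.24. NitFhit (CPIJ013067), a fusion of a nitrilase with a dinucleotide hydrolase, averaged -0.30 ± 0.27, -1.11 ± 0.19 and -0.26 ± 0.25, and CPIJ017459, named for 2-succinylbenzoate-CoA ligase of the adenylate-forming ligases, -0.43 ± 0.52, -1.55 ± 0.64 and 0.21 ± 0.46.

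Of the 12 lowest genes, 5 more have no functional name: CPIJ017865 (-2.01 ± 0.71 at 12 h), CPIJ020205 (-1.70 ± 0.27), CPIJ015182 (-1.53 ± 0.60), CPIJ005020 (-1.59 ± 0.44) and CPIJ003392 (-1.48 ± 0.23). The first 3 were near 0 at 6 or 18 h only as an average of opposed arrays. CPIJ017865 had 1.52, -1.57, -1.63 and 0.54 on the arrays of 6 h, -1.0, -2.01, -2.60 and -2.42 on those of 12 h, and 1.31, -1.32, 0.34 and -2.18 on those of 18 h. In CPIJ020205 the arrays of 6 h ran between -1.90 and 1.47, and in CPIJ015182 those of 18 h were -1.65, 0.80, -1.72 and 0.81. The SD over the 4 arrays exceeded 1 at 6 or 18 h in 5 genes, which were CPIJ017865, CPIJ020205, CPIJ017863, CPIJ015182 and cecropin, and in 0 genes at 12 h. More widely, 12 genes had all 4 arrays of 6 h within 0.5 of 0, 7 genes all 4 of 18 h, and 10 genes had an array at -1 or less at 6 or 18 h. At 12 h, 11 genes were at -1 or less on all 4 arrays. The genes not described one by one, all without a functional name, averaged between -1.23 (CPIJ003777) and -1.0 at 12 h. In CPIJ017863 a spot was saturated in the untreated channel on all 4 arrays of 12 h, so that its untreated level there is a lower limit, and in the toxin channel on 2 arrays of 6 h and 1 of 18 h, so that its ratios there are lower limits too.

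The probes of a gene mostly read alike, and 45 of the 53 genes had 2 spots. Every spot of all 53 genes averaged -0.5 or less at 12 h, and in 37 genes every spot was at -1 or less. The median gap between the spots of a gene was 0.10, and the largest, 1.14, was that of CPIJ020205. In the toxin channel 50 of the 53 genes were well above background on all 12 arrays. The exceptions were CPIJ020205 (9 arrays), cecropin (10 arrays) and CPIJ002252 (9 arrays).

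The ratio does not say in which larvae the signal moved. The rule limited the difference of the channels, and it also asked for an untreated signal well above background on all 12 arrays, with no such condition on the toxin signal. The signals were therefore also taken apart by channel after loess and a scaling of the mean intensity between arrays (Aquantile). Against the mean of 6 and 18 h, the toxin channel of the 53 genes differed at 12 h by a median of -0.06 and the untreated channel by 0.58 on the log2 scale, while both medians were 0.00 over all genes. The toxin channel was lower at 12 h in 38 of the 53 genes (50.7% of all genes), and the untreated channel was higher in 52 of the 53 (9885 of all 19751 genes). The untreated channel changed by more, in size, than the toxin channel in 49 of the 53 (60.7% of all genes). In 47 genes the untreated signal was higher on every array of 12 h than on every array of 6 and 18 h, which held for 12.8% of all genes, and in 0 genes was the toxin signal lower on every array of 12 h (0.537% of all genes). Set against each time alone, the toxin signal at 12 h was below that of 6 h in 29 genes (47.5% of all genes) and below that of 18 h in 41 (52.9%), and the untreated signal was above that of 6 h in 51 (51.6%) and above that of 18 h in 52 (9866 of all 19751 genes). Choosing genes by a low ratio at 12 h favors a high untreated and a low toxin signal at that time, so all of these counts are a description only. Since the untreated larvae count as 1 sample per time and each time as 1 slide, the untreated differences have no replicate spread, and larvae, slide and scan cannot be told apart in them.

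**Figure D2:**
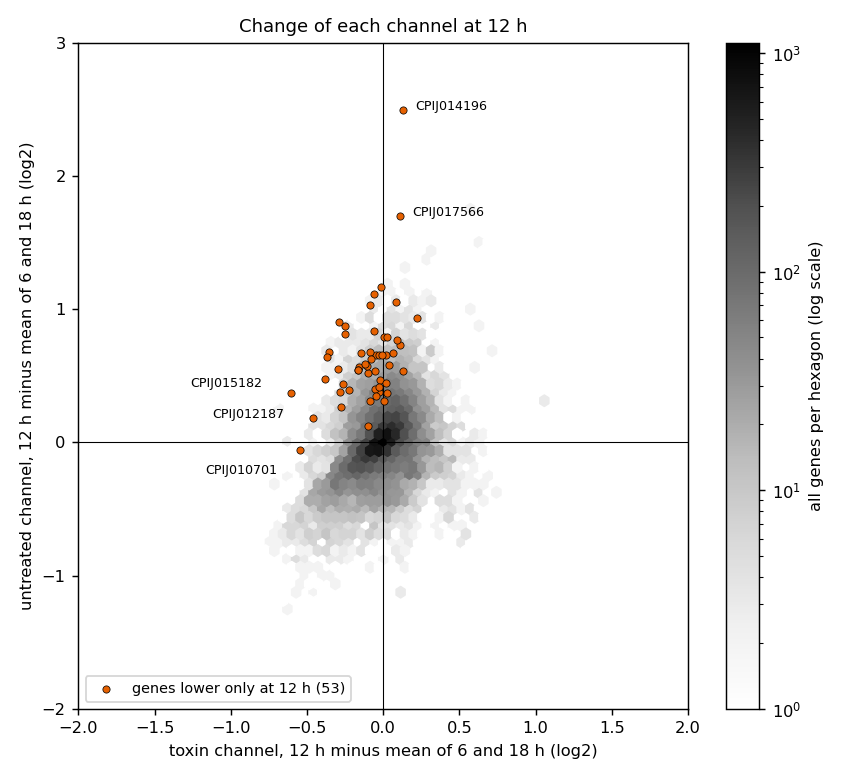
Each orange point is 1 of the 53 genes, with the change of its toxin signal at 12 h on the horizontal axis and of its untreated signal on the vertical axis (log2, 12 h minus the mean of 6 and 18 h), over hexagons that count all genes on a log scale. The points stand above the horizontal line except cecropin (CPIJ010701) at -0.06, and 38 of the 53 lie within 0.2 of 0 on the toxin axis.

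CPIJ014196 shows the pattern most fully. Its normalized toxin signal was 7.83, 7.94, 7.80 and 7.75 on the arrays of 6 h, 7.47, 7.61, 7.65 and 7.78 on those of 12 h, and 7.45, 6.84, 7.20 and 7.18 on those of 18 h, against an untreated signal of 7.66, 7.6, 7.57 and 7.70 on the arrays of 6 h, 9.77, 9.89, 9.88 and 9.74 on those of 12 h, and 7.05, 6.97, 7.03 and 7.0 on those of 18 h (log2). The untreated signal of 12 h stood alone, 2.19 and 2.81 log2 units above 6 and 18 h, while the toxin signal had means of 7.83, 7.63 and 7.17 and was lower on every array of 18 h than on every array of 6 and 12 h. In the synaptic vesicle protein CPIJ017566 the mean toxin signal was 10.74, 10.62 and 10.27 at 6, 12 and 18 h and the untreated signal 10.82, 12.40 and 10.58. Xanthine dehydrogenase/oxidase had 11.38, 11.72 and 11.62 in toxin-treated larvae and 11.89, 12.81 and 11.86 in untreated larvae. Aspartyl-tRNA synthetase had 10.55, 10.59 and 10.68 in toxin-treated larvae against 10.97, 11.59 and 10.91. In all 3 genes the untreated value of 12 h was the one that stood out.

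A few genes divided otherwise. In the mitochondrial dicarboxylate carrier the toxin signal was 12.70, 12.33 and 12.71 and the untreated signal 13.09, 13.62 and 12.86 at 6, 12 and 18 h, so that the channels moved apart at 12 h by -0.37 and 0.64. Proteasome subunit beta type 8 had 12.80, 12.80 and 13.14 in toxin-treated larvae against 13.67, 13.99 and 13.22, with the lower untreated level at 18 h. In cecropin, CPIJ015182 and CPIJ012187 the toxin channel held the larger part, with -0.55, -0.60 and -0.46, against -0.06, 0.37 and 0.18 in the untreated channel. In liprin alpha the parts were about even, at -0.28 and 0.27. The mean toxin signal of CPIJ012187 was 8.75, 7.64 and 7.46 and its untreated signal 8.94, 8.46 and 7.62, so that both channels were lower at each later time.

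**Figure D3:**
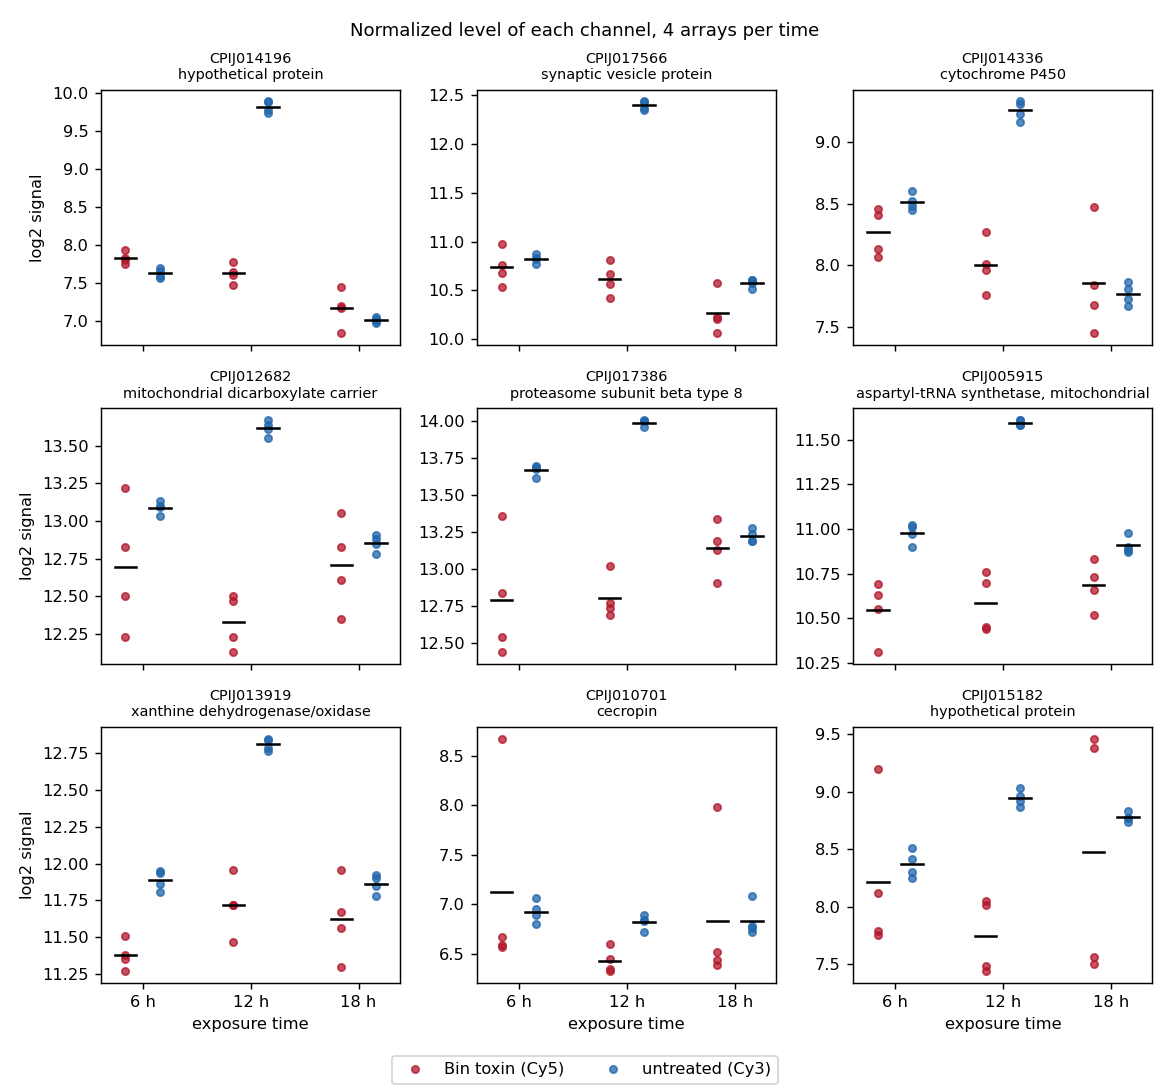
Normalized log2 signal of 9 of the genes at 6, 12 and 18 h, with Bin toxin-treated larvae (red, Cy5) left of untreated larvae (blue, Cy3) at each time; points are the 4 arrays and bars their mean. In every panel but that of cecropin the untreated signal of 12 h lies above that of 6 and 18 h, most in CPIJ014196, while cecropin and CPIJ015182 show toxin arrays far apart at 6 and 18 h.

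Other genes divided in a like way. The 881 genes with a mean ratio of -1 or less at 12 h and well above background, which include the 53, had median changes of 0.00 in the toxin channel and 0.55 in the untreated channel. The 80 genes higher only at 12 h had 0.24 in the toxin channel and -0.56 in the untreated channel. The difference between these sets and the 53 genes was not tested, since all were chosen by the same ratios.

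The 12 h ratios were also passed through a test across all genes, with normexp and loess ratios in a linear model (limma) and a call at an adjusted p below 0.05 and a log2 change of at least 0.75 in size. At 12 h, 40 of the 53 genes were called lower, against 5.51% of all genes, which is a description only, since the genes were chosen on these ratios. Another 13 genes missed the call with fitted ratios between -0.70 and -0.37, among them CPIJ020205 (-0.59), cecropin (-0.39) and CPIJ017459 (-0.69). At 6 h, 1 of the 53 was called lower (3.20% of all genes) and 0 higher (2.24%). The gene called lower was proteasome subunit beta type 8 (CPIJ017386), with fitted ratios of -0.88 at 6 h and -1.19 at 12 h. At 18 h 0 of the 53 were called lower (1.79%) and 0 higher (2.42%). Lower at 12 h than at both 6 and 18 h by the contrasts of the fit were 43 genes of the array (0.218%), and 7 of them were among the 53: CPIJ014196, CPIJ017566, CPIJ005020, CPIJ014336, CPIJ003392, CPIJ012682 and CPIJ009348. The fitted ratios of the 53 genes had medians of -0.23, -0.97 and -0.18 at 6, 12 and 18 h, with a range of -2.19 to -0.37 at 12 h.

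Lists of 8 pathways were taken from the names in the study's list, which it chose on these samples, so that their direction is no independent evidence. Their genes called lower were most at 12 h, and at 18 h were between 0 and 3 in each list. Over all genes, 3.20%, 5.51% and 1.79% were called lower and 2.24%, 3.88% and 2.42% higher at 6, 12 and 18 h. The 33 proteasome genes, the protease that degrades ubiquitin-tagged proteins, had 19, 24 and 0 called lower and 0, 0 and 1 called higher at the 3 times, with median ratios of -0.82, -0.95 and -0.34. Only beta type 8 (CPIJ017386) of them is among the 53, and it is among those called lower at 6 h as well as at 12 h. Of 9 genes of mitochondrial protein import, 5, 7 and 0 were called lower and 0 higher at the 3 times, with medians of -0.78, -1.02 and -0.20, and tom20 is the one among the 53. The 18 aminoacyl-tRNA synthetases, which charge tRNAs, went both ways, with 2, 6 and 0 called lower and 0, 3 and 4 called higher. Their median at 12 h was 0.16, above the -1.03 of aspartyl-tRNA synthetase.

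The other 5 lists hold none of the 53 genes. At 12 h, 24 of 46 mitochondrial ribosomal proteins, 7 of 17 genes of the citric acid cycle and 2-oxoacid dehydrogenases, 9 of 26 amino acid oxidases, transaminases and arginine enzymes, 14 of 31 chaperones, prefoldins and prolyl isomerases and 22 of 28 genes of translocation, folding and glycosylation in the endoplasmic reticulum were called lower. The numbers called higher in the same lists were 0, 0, 2, 1 and 0. Of all genes, 5.51% were called lower and 3.88% higher at 12 h. Called lower at 6 h were 13, 1, 3, 12 and 17 of these genes, and at 18 h 0, 1, 3, 0 and 1. Median ratios were -0.56, -0.29, -0.09, -0.81 and -0.88 at 6 h. They were -0.74, -0.68, -0.61, -0.64 and -1.21 at 12 h, and -0.17, -0.22, -0.28, -0.17 and -0.35 at 18 h. Against the mean of 6 and 18 h, the untreated channel was higher at 12 h in 46 of 46, 16 of 17, 20 of 26, 27 of 31 and 27 of 28 of these genes. Over all genes this held for 9885 of 19751. The median changes of the untreated channel in the 5 lists were 0.38, 0.36, 0.31, 0.21 and 0.52.

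**Figure D4:**
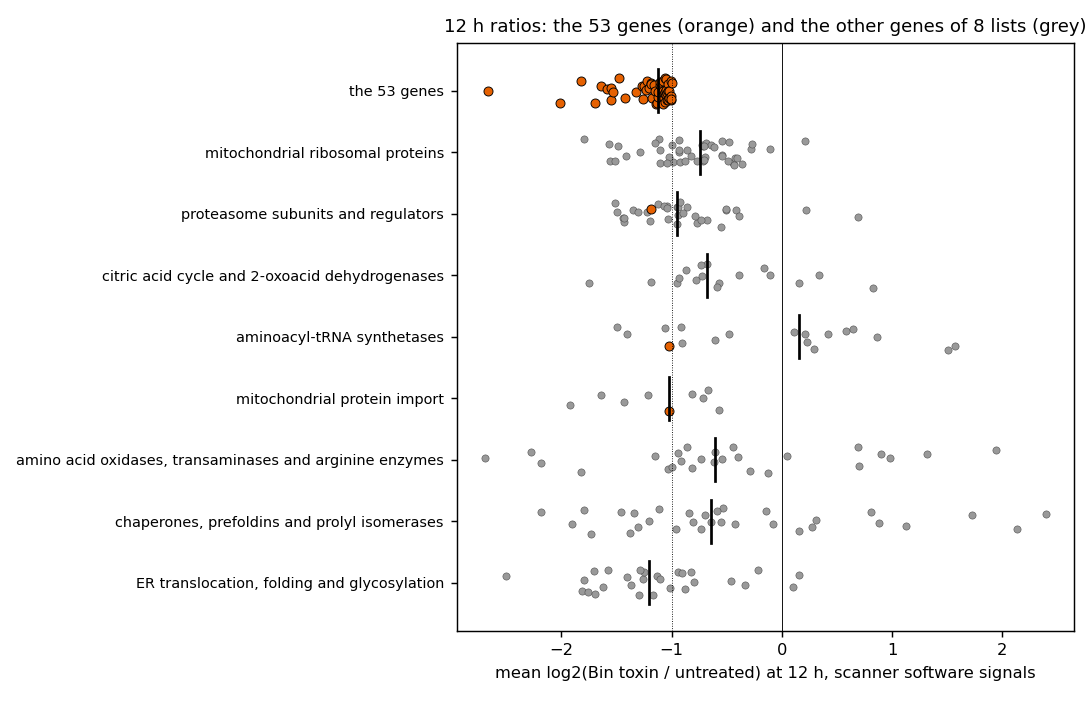
Mean log2(Bin toxin / untreated) at 12 h of each gene, from the scanner software's signals, for the 53 genes (top row, orange) and for the 8 pathway lists (grey, with those among the 53 in orange); black bars are medians and the dotted line marks -1. The 53 genes pile up between -1.2 and -1, and only 3 of them, at -1.19, -1.03 and -1.02, belong to a list.

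By identifier, 1 pair of the 53 was consecutive, CPIJ001028 and CPIJ001029, with mean ratios of -0.48, -1.01 and -0.32 and of -0.39, -1.01 and -0.27 at 6, 12 and 18 h. CPIJ017863 and CPIJ017865 enclose CPIJ017864, which was low at all 3 times (-1.1, -1.79 and -1.22). The aldo-keto reductase CPIJ003397 and CPIJ003392 lie in a run of identifiers that holds 4 other genes named as reductases. Of these, aldehyde reductase 1 (CPIJ003391) had mean ratios of -0.63, -0.85 and -0.48 and the aldose reductases CPIJ003393 and CPIJ003394 had -1.21, -1.80 and -0.94 and -0.32, -0.93 and -0.60. The gene next to CPIJ003397, 2,5-diketo-D-gluconic acid reductase B (CPIJ003396), was on the other side of 0 with 0.46, 0.92 and 0.04. CPIJ003395 (-0.14) and CPIJ003398 (-0.24) were near 0 at 12 h. The identifiers of all 53 genes matched 0 entries of the reference table used here, so that no position or sequence is given.

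The genes whose 12 ratios ran most like the mean of the 53 were low at 6 h as well. Prohibitin-2 (CPIJ000981), a scaffold of the mitochondrial inner membrane, had a Pearson r of 0.965 over the 12 arrays and means of -0.64, -1.65 and -0.38. The conserved hypothetical protein CPIJ004527 (r of 0.964) had -0.52, -1.23 and -0.52. Succinyl-CoA ligase subunit alpha (CPIJ018673), of the citric acid cycle, had an r of 0.958 and means of -0.94, -1.75 and -0.89. These r values were picked as the highest of all genes, and the 12 arrays share 3 slides and what are counted here as 3 untreated samples. Among the 53, r with their own mean was lowest for cecropin (0.418) and CPIJ015182 (0.44).

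Genes typical of the midgut were measured well. Of 54 digestive enzymes, 53 exceeded the background mark on every array in the toxin channel, and 53 in the untreated channel. The list of digestive enzymes holds 0 of the 53 genes, and so does each list of another tissue. Genes of the other tissues were measured too, with all 12 fat body genes, all 6 muscle genes and all 4 hemocyte genes above that mark throughout, and 21 of 23 cuticle genes. Fewer cells of a type and less RNA per cell cannot be told apart in such pools. At 6 h the summed signal of the fat body genes ranged from 35500 to 427000 in toxin-treated larvae and from 78300 to 103000 in untreated larvae. The range at 12 h was 94900 to 1340000 in toxin-treated larvae and 440000 to 814000 in untreated larvae, and at 18 h 63700 to 409000 in toxin-treated larvae and 447000 to 544000 in untreated larvae. Taken by gene, the fat body genes changed at 12 h against the mean of 6 and 18 h by a median of 0.77 in the toxin channel and 1.04 in the untreated channel, where 11 of the 12 were higher. The cuticle genes changed by 0.56 in the toxin channel and 0.37 in the untreated channel, where 18 of 23 were higher. The medians for hemocytes were 0.14 (toxin) and 0.24 (untreated), for muscle 0.19 and -0.08, and for the digestive enzymes 0.01 and -0.04. For muscle the ranges at 12 h were 38400 to 93700 in toxin-treated larvae and 31400 to 65600 in untreated larvae, for cuticle 25100 to 410000 in toxin-treated larvae and 47200 to 98600 in untreated larvae, and for hemocytes 187000 to 294000 in toxin-treated larvae and 285000 to 407000 in untreated larvae. Their part in the ratios of the 53 genes was not tested.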

How the data were processed

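The intensity values that the authors deposited are, per the file headers, spot and local background medians of both channels, and a pair of signals that Agilent Feature Extraction background-subtracted and dye-normalized. The log2 values in the deposited table are toxin over control ratios that the authors background-corrected and normalized by loess. Normexp with an offset of 16 and loess gave them to within 4.98e-08.

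The 53 genes, the gene lists and the tests were chosen with earlier results of these data known. The rule was applied to the software's signals (1417 of 45220 spots were controls). For tests, normexp (offset 50) was fitted without spots marked for uneven local background, because 3 arrays otherwise had log ratios of an interquartile range of 0.039, 0.039 and 0.014, against 0.226 to 0.348 on the 12 arrays with this fit. Outlying spots were left out, ratios were normalized by loess, spots of a gene averaged, and lmFit and eBayes of limma 3.58.1 (R 4.3.3) fitted to all 12 arrays, with Benjamini-Hochberg adjustment over 19751 genes. Channel levels were the mean log2 signal of both channels with the log ratio split evenly about it, after Aquantile scaling. The linear model, the adjustment and the call were tested on simulated log ratios, drawn independently for each array. Background correction, loess, averaging of spots and Aquantile scaling were not part of that simulation, nor was an untreated sample shared by the arrays of a time. Named genes are the 12 of lowest ratio at 12 h, those on a list, the 5 of highest untreated signal, 3 on each side of the limit, and those named as enzymes, transporters or receptors. Gene families by name and neighbors by identifier were looked at after values were seen. Names are those that the study pairs with the identifiers. Adjusted p-values measure the spread among these arrays, which for untreated larvae may be technical. The number of arrays limits the precision.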

Additional observations from a re-analysis of the deposited data

Results flagged for a closer look

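Of 159 groups of 4 ratios (53 genes at 3 times), 10 had 1 array far from the other 3 by Dixon's criterion, which chance gives in about 5% of groups. At 6 h these were CPIJ015182 (0.86 on replicate 1, others -0.63 to -0.38), cecropin CPIJ010701 (2.16 on replicate 2, others -0.81 to -0.62) and CPIJ000111 (0.04 on replicate 4, others -0.49 to -0.42). At 12 h, replicate 1 was the highest in CPIJ003392 (-1.14, others -1.61 to -1.56), in the aldo-keto reductase CPIJ003397 (-0.51, others -1.68 to -1.53) and in the sulfate transporter CPIJ017095 (-0.75, others -1.37 to -1.29). The synaptic vesicle protein CPIJ014102 was lowest on replicate 2 (-1.69, others -1.03 to -0.91) and tom20 CPIJ007967 highest on replicate 3 (-0.86, others -1.08 to -1.06). At 18 h they were CPIJ005020 (0.53 on replicate 1, others 0.08 to 0.13) and CPIJ012765 (-0.84 on replicate 2, others -0.24 to -0.13).

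In 2 genes all 4 arrays of 18 h were above 0 while all 4 of 12 h were below it: CPIJ014196, with a mean of 0.39 at 18 h, and CPIJ005020, with 0.21. The rule chose on both times, and the difference was not tested.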

How the results depend on the processing

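Membership moved with how the ratio was made. The 53 genes were 35 under normexp and loess (15 shared), 16 with normexp fitted on all spots (9 shared), 80 with median centring (10 shared), 12 with scaling between arrays (8 shared) and 16 with the deposited ratios (9 shared). Their median ratio at 12 h of -1.12 was -0.97, -0.79, -0.85, -0.85 and -0.85 in that order, and by gene 138 of 1007 values moved by over 1 SD and 0 changed sign. Plain subtraction (51, 29 shared) and the median over spots (52, 51 shared) stayed close. Leaving out 1 array gave 39 to 79 genes (79 without 12 h replicate 1, 39 without 6 h replicate 4) and medians of -1.17 to -1.03. The channel medians ranged from -0.09 to -0.04 (toxin) and from 0.57 to 0.60 (untreated) with 1 array left out, the untreated channel being higher in 52 genes each time and the toxin channel lower in 30 to 42. With each channel scaled to its 75th percentile they were -0.24 and 0.68, where all genes shifted by -0.11 and -0.12 and the untreated change was the larger in 43 genes instead of 49, and by quantiles -0.05 and 0.54.

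Over all genes, 1855 were called at 12 h (1780 to 1902 with 1 array left out), 1076 at 6 h (1031 to 1167) and 831 at 18 h (767 to 910). Software signals gave 3345, 1660 and 1878. Median centring gave 1722 at 18 h (171 lower and 1551 higher, against 353 and 478) and 406 lower and 784 higher at 6 h, against 633 and 443. The 43 genes called lower at 12 h than at both other times (29 to 59) were 15 with normexp on all spots, 78 with subtraction, 182 with median centring, 9 with scaling, 67 with software signals and 18 with the deposited ratios. The causes were not tested. With replicate number as a replicate block, 1870, 1086, 863 and 47 genes were called. Of 12 correlations between samples of the same number, -0.106 to 0.394, 8 were above 0.1. Samples of different number were not compared, so whether the numbers pair the samples was not tested.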
